A study of Homo sapiens with 6 samples.

Results

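The protein-coding genes of human chromosome 19 other than zinc finger genes were compared between the bladder cancer cell line T24 and its drug-resistant derivative T24DDP. The members were chosen by a table of genes that the authors had selected on the same contrast, T24DDP against T24, with thresholds of 0.05 on the adjusted p and 1 on the size of the log2 fold change. From that table, the protein-coding genes on chromosome 19 were taken, without those named as zinc fingers, solute carriers, cytochrome P450 enzymes or potassium channels. This left 102 of the 2462 listed genes. The table lists 164 protein-coding genes of chromosome 19, so 62 were left out, of which 55 have zinc finger names and 6 have names of the other families. A single further gene was left out. Because the members were selected on their difference between the lines, all differences between T24 and T24DDP given for them are a description and support nothing.

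T24 is an established human bladder carcinoma line, and RNA was sequenced from 3 libraries of it. T24DDP, called T24-R by the authors, was grown from T24 in rising amounts of gemcitabine and cisplatin, and 3 libraries of it were sequenced. Both groups are cultured cells, no other agent or allele is named for either, and T24DDP is a single derived strain, so a difference belongs to that strain and not to resistant cells at large. The labels name bladder and T24, while their protocol text describes retinas and the mouse build mm9. The gene names and positions in the table are human and on GRCh38. The study's general statement is that experiments were repeated independently, but what separates the 3 sequenced libraries of a line is not given for the RNA sequencing, so the spread among them may be technical, and n = 3 for every mean below.

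Chromosome 19 is the most gene-dense of the human chromosomes and is rich in G and C. Many of its genes stand in tandem families, among them zinc finger genes, kallikreins, leukocyte receptors and the CEACAM and PSG adhesion proteins. The genes between these families have no shared function: they include hormone and growth factor receptors, cytokines, complement, junction proteins, lipid carriers and genes of nerve cells.

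The value of a gene in a library is its read count divided by the library's size factor, here called the scaled count. Size factors ran from 0.939 to 1.03 in T24 and from 1.00 to 1.08 in T24DDP, and the listed genes held 1170731 to 1411926 reads per library. The third T24DDP library stood apart: the mitochondrial ribosomal RNA gene MT-RNR2 took 22.3% of its listed reads, against 9.36% and 9.33% in the other T24DDP libraries and 3.23% to 3.37% in T24. Of 21 urothelial and epithelial markers, 3 are in the table: KRT19 and PPARG were lower in T24DDP and GATA3 was higher. Of 12 fibroblast markers 2 are listed, both higher, of 4 endothelial markers 1 is listed, also higher, and none of 10 blood cell markers is listed. The listed endothelial marker, PECAM1, was at 21.0 to 32.3 in T24DDP and between 0 and 4.26 in T24, and the part of these markers in the values below was not tested. In bulk RNA, fewer cells expressing a gene and less of its RNA per cell cannot be told apart.

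Most of the 102 genes were higher in T24DDP. On the log2(value + 1) scale the fold change was above 0 for 94 of them and below 0 for 8, with a median of 1.80, quartiles of 1.22 and 2.91 and a range from −2.21 to 6.70. The median over all listed genes was 1.41. The median gene stood at a scaled count of 22.4 in T24 and 102 in T24DDP. In limma, 90 of the 102 were called higher and 8 lower, beside 69.2% and 29.2% of all 2462 listed genes, shares that the selection of the table set. The T24 and T24DDP libraries did not overlap for 91 genes that were higher and 8 that were lower, beside 70.0% and 29.1% of all listed genes. The 3 genes whose libraries overlapped were ICAM5, TRAPPC6A and NTF4. Of the 94 genes with a positive value, 25 were above 3 on the log2 scale, 18 between 2 and 3, 47 between 1 and 2, and 4 below 1.

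These counts depend on how the libraries are scaled. With TMM factors computed on the listed genes, the median of all listed genes moved by −1.32, and 37 of the 102 were called higher and 8 lower, against 584 and 721 of all listed genes. On that scale 73 of the 102 had a positive value and 29 a negative one. The table holds only genes selected as changed, more of them higher than lower, so factors computed on it move the whole table toward its own centre. A gene with a log2 value near 1 can turn through that shift, whatever its own difference. A direction given below for such a gene is a direction on the authors' scaling, and genes that turn are named with their values.

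The reads on the 102 genes summed to 11282, 11305 and 11420 in T24 and to 33413, 35619 and 31495 in T24DDP. As a share of the reads on all listed genes they took 0.903%, 0.918% and 0.899% in T24 and 2.85%, 2.84% and 2.23% in T24DDP. The T24 libraries lay close together, and the third T24DDP library was below the other T24DDP libraries.

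Genes with higher values lay on both arms of the chromosome. Split at 26 Mb, 55 genes lie on the short arm and 47 on the long arm, where the last gene before the split was TSSK6 at 19.5 Mb and the first after it LRP3 at 33.2 Mb. On the short arm 49 were called higher and 4 lower with a median of 1.76, and on the long arm 41 were called higher and 4 lower with a median of 1.81. Taken for each T24DDP library against the T24 mean, the median was 1.81, 1.85 and 1.59 on the short arm and 1.89, 1.95 and 1.72 on the long arm. The median of the long arm was slightly above that of the short arm in all 3 libraries, each set against the same T24 mean. The SD over the T24DDP libraries was 0.139 on the short arm and 0.118 on the long arm. The order of the arms turned in several alternatives: the long and short arm medians were 0.49 and 0.54 with TMM factors. They were 1.81 and 1.89 with edgeR, and 1.81 and 1.90 with DESeq2. With a pseudocount of 0.1 they were 1.85 and 1.91. Leaving out the first T24 library gave 1.76 and 1.88, and leaving out the second T24DDP library gave 1.71 and 1.77. In the remaining alternatives the long arm stayed above. Of the genes that GENCODE annotates under the same name rule, the table lists 10.2% of 538 on the short arm and 7.39% of 636 on the long arm. The 55 listed zinc finger genes of the chromosome had a median of 1.49 on the same scale.

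Within the arms, no window held mostly lower genes. In windows of 5 Mb with at least 5 members, the median ran from 1.22 between 10 and 15 Mb to 2.46 between 15 and 20 Mb. The window from 10 to 15 Mb held 3 of the 8 lower genes among its 15 members (PDE4A, AP1M2 and ACP5). The window from 15 to 20 Mb held 10 genes, all with positive values, among them B3GNT3 and TMEM59L.

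**Figure D1:**
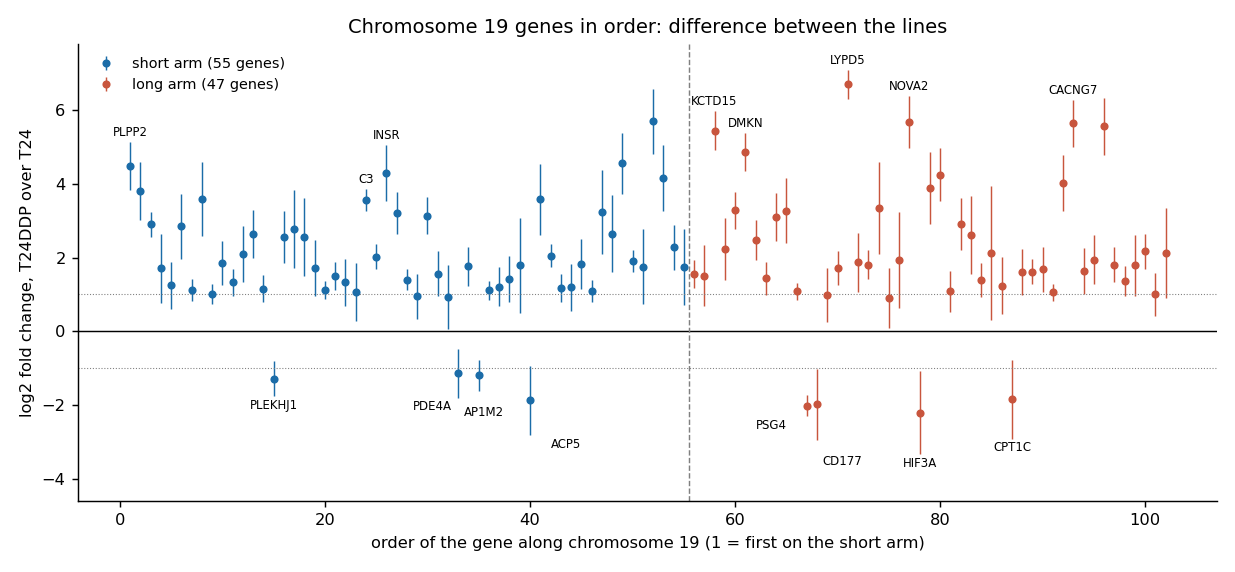
Log2 fold change of T24DDP over T24 (y axis, log2(value + 1) scale) for the 102 genes in their order along chromosome 19 (x axis); points are limma estimates, bars their 95% intervals, colours the arms, the dashed line the split between the arms, and dotted lines mark 1 and −1. Genes above 0 run through both arms, and 8 genes lie below 0, 4 on each arm.

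The promoters of these genes were rich in G and C, a feature that the selection did not use. RefSeq promoters (GRCh38.p14, 250 bases before the gene's start to 50 after it) were found for 74 of the 102 genes. They held a median of 68.5% G and C, against 63.7% in the promoters of 848 other chromosome 19 genes under the same name rule and 64.7% in 1311 listed genes of other chromosomes. The 6-letter GC box GGGCGG stood on either strand in 82.4% of them (61 of 74), against 64.9%, 65.1% and, over 27305 promoters of the whole table, 44.6%. CCAAT was present in 33.8% of the members' promoters and 35.7% of all promoters, TATAAA in 4.05% and 12.0%, TGACTCA in 4.05% and 4.92%, and CACGTG in 8.11% and 7.43%, each on either strand. For TATAAA the share was 8.14% in the other chromosome 19 genes under the name rule and 7.25% in listed genes of other chromosomes. The members' share of TATAAA rests on 3 promoters. The median CpG count was 24.5 in the members' promoters. It was 21 in the other chromosome 19 genes under the name rule and 24 in listed genes of other chromosomes. In the same order, the median ratio of CpG observed to that expected from the C and G counts was 0.71, 0.74 and 0.77. No motif contains another. A match is a description of the letters and not of a bound site. The start that RefSeq gives can lie inside the gene as the table has it, as for LYPD5, LRP3, GDF15 and PSG4.

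The promoters below run from genes with many GC boxes (HCN2 and LRP3, with 7 each) to a gene with none (HIF3A). The promoter of CADM4, not printed, had more, with 9. Those printed include the gene with the largest fold change (LYPD5), a gene with no T24 read (NOVA2), 2 genes for secreted cytokines (GDF15 and IL11) and 2 lower genes (PSG4 and HIF3A). Capitals mark matches to the 5 motifs on either strand, and each is written 5′ to 3′ on the strand of its gene.
HCN2, chr19:589631-589930, + strand: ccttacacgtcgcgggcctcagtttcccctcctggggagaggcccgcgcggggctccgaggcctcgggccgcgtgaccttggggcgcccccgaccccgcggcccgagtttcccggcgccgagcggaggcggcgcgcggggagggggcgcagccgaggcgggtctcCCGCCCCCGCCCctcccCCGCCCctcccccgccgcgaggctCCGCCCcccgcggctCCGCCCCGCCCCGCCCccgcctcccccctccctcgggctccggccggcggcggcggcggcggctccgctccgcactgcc
LRP3, chr19:33194080-33194379, + strand: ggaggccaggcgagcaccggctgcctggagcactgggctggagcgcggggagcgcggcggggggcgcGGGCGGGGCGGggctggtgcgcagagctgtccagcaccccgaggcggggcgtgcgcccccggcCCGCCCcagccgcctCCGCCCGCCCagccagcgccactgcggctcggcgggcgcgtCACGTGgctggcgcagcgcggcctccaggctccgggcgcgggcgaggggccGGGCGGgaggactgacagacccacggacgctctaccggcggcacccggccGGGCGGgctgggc
LYPD5, chr19:43802398-43802697, - strand: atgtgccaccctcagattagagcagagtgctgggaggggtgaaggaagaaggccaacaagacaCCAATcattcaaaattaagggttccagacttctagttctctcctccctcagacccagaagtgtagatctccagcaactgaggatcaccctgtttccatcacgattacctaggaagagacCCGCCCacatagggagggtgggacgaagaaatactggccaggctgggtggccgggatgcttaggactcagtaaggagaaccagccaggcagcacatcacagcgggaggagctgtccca
NOVA2, chr19:45973816-45974115, - strand: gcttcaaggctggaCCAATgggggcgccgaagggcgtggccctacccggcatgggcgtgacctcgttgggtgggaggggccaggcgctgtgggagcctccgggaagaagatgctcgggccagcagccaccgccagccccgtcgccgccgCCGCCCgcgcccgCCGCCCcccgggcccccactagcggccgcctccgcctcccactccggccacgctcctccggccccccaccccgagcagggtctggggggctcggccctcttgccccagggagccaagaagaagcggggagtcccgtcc
GDF15, chr19:18385908-18386207, + strand: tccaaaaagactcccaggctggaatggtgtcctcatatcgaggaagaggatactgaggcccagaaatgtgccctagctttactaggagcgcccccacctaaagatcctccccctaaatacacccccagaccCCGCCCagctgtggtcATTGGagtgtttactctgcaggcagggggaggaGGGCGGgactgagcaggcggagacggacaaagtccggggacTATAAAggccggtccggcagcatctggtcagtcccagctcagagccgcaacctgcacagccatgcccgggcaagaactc
IL11, chr19:55370414-55370713, - strand: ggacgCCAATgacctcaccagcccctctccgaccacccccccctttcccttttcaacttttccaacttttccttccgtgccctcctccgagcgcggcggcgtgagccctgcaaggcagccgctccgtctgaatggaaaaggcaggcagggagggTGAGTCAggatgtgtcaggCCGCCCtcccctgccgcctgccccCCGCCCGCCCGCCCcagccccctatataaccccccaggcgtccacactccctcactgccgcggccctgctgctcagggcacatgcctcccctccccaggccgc
PSG4, chr19:43205589-43205888, - strand: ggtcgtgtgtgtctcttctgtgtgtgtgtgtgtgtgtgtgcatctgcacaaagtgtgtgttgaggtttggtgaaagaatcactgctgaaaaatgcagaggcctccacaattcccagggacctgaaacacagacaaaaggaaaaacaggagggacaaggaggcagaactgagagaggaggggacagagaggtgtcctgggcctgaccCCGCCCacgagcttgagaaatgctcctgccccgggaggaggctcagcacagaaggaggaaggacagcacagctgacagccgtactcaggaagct
HIF3A, chr19:46296792-46297091, + strand: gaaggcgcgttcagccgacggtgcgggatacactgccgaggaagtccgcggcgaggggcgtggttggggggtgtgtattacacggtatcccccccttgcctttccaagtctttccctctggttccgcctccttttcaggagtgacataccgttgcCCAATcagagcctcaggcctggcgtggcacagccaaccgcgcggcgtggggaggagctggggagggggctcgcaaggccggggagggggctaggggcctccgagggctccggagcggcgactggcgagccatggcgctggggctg

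The largest difference was at LYPD5 (chr19:43795929-43827206), which encodes a Ly6/PLAUR-domain protein held at the cell surface by a lipid anchor. Its scaled counts were 5.32, 6.13 and 4.84 in T24 and 654, 635 and 709.9 in T24DDP, a 123-fold difference, or 6.70 ± 0.40 on the log2(value + 1) scale with its 95% half-width. The values lay close together within each line and the groups were far apart. The promoter of LYPD5 is among the poorest in CpG of those printed, with 5 CpG and 1 GC box. Its relative LYPD3 on the same arm had 41.5, 38.8 and 34.8 in T24 and 103, 98.8 and 44.1 in T24DDP. LYPD3 did not overlap between the lines, but the third T24DDP library came close to T24, the log2 value was 0.98, and the gene was not called.

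Complement C3 (chr19:6677704-6730562), the protein on which the complement pathways converge, rose from an already high level. Its scaled counts were 630.2, 594 and 665 in T24 and 6807, 6961 and 8753 in T24DDP, an 11.9-fold difference. Per kb of gene length C3 stood at 75.6 in T24 and 901 in T24DDP, which put it above every other member in T24DDP, while AP1M2 was highest in T24 at 909 per kb. Over cytokines, complement and innate signalling, 7 of the 53 annotated genes were listed and all 7 were called higher, with a median of 2.17. Counts called higher in this list and those below stand beside 88.2% of the 102 members and 69.2% of all listed genes. A list of few genes called mostly higher is near the share of the members at large and is no result about its function. With TMM factors 6 of the 7 were positive and CFD, the complement protease factor D, was at −0.06.

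IL11, a cytokine of the IL-6 family, had 55.4, 44.9 and 61.9 in T24 and 305, 247 and 196 in T24DDP, a 4.61-fold difference with no overlap. GDF15, a stress-induced member of the TGF-beta family, had 143, 106 and 110.3 in T24 and 669.6, 563 and 172 in T24DDP. The third T24DDP library was far below the others, and without it the log2 value of GDF15 went from 1.75 to 2.36. EBI3, a subunit shared by IL-27 and IL-35, showed the same split among the T24DDP libraries, with 6.39, 4.09 and 7.74 in T24 and 57.9, 57.3 and 18.6 in T24DDP.

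INSR (chr19:7112255-7294034), the insulin receptor, had 7.45, 11.2 and 12.6 in T24 and 157, 191 and 349 in T24DDP, a 22.3-fold difference. All T24DDP libraries were far above T24, and the third, unlike for most members, was the highest. EPOR, the erythropoietin receptor, had 128, 127 and 93.9 in T24 and 339, 303 and 188 in T24DDP, a 2.38-fold difference whose log2 value turned from 1.22 to −0.13 with TMM factors. LRP3, a receptor of the LDL receptor family, had 193, 151 and 154 in T24 and 421, 471 and 592 in T24DDP. Of the list for Notch and growth factor signalling, 6 of 38 annotated genes were listed and 6 were called higher with a median of 2.00, and with TMM factors 5 stayed positive and EPOR did not. That list includes GAMT, an enzyme of creatine synthesis, and NTF4, a neurotrophin with few reads. None of the ephrins or Notch receptors on it is listed.

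Of the fixed list of receptors coupled to G proteins, 3 of 45 annotated genes were listed. All 3 were called higher, beside 88.2% of the members, with positive values also under TMM. The list leaves out KISS1R and VN1R1, members that are receptors of this kind as well. S1PR2 and S1PR5 are receptors for the lipid sphingosine 1-phosphate. S1PR2 had 29.8, 46.0 and 47.4 in T24 and 99.8, 106 and 165 in T24DDP, and S1PR5 had 58.5, 33.7 and 40.6 in T24 and 154, 169 and 126 in T24DDP. Neither gene overlapped between the lines. GIPR, the receptor for the gut hormone GIP, was low, with 2.13, 14.3 and 9.68 in T24 and 31.9, 39.7 and 20.6 in T24DDP. The T24 values of GIPR spread over a wide range, and its 95% half-width of 1.30 was among the widest of the members.

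Junction, adhesion and matrix genes were the most numerous group with the nerve genes, with 13 of 51 annotated genes listed. Of these 12 were called higher, beside 88.2% of all members, and 1, ICAM5, was not called. Their median was 1.51, and with TMM factors 9 stayed positive and 4 turned, among them SEMA6B (−0.23), ICAM5 (−0.40) and ADAMTSL5 (−0.19). The list also holds SPINT2, UNC13A and TMEM59L, which are not adhesion proteins. SPINT2 (chr19:38244035-38292614), a Kunitz-type inhibitor of serine proteases on epithelial cells, had 605, 516 and 499 in T24 and 3886, 3590.1 and 1955 in T24DDP, a 5.82-fold difference. LSR, a lipoprotein receptor that also builds the tricellular junctions of epithelia, had 44.7, 49.0 and 31.9 in T24 and 480.0, 449 and 321 in T24DDP, a 9.95-fold difference. Both were lowest in the third of the T24DDP libraries and still far above T24 there. PTPRS, a receptor tyrosine phosphatase that binds heparan sulfate proteoglycans, had 159, 173 and 216 in T24 and 456, 489.5 and 619 in T24DDP.

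SEMA6B, a transmembrane semaphorin, differed by about the selection threshold, with 387, 341 and 344 in T24 and 761, 777 and 798 in T24DDP. Its libraries were within a narrow range in each line and the lines did not overlap. BCAM, a laminin receptor, had 121, 150.2 and 105 in T24 and 461, 482 and 377 in T24DDP, and CADM4, a nectin-like adhesion protein, had 57.5, 64.4 and 74.5 in T24 and 266, 222 and 169 in T24DDP. ICAM5, an adhesion molecule of telencephalic neurons, had 41.5, 71.5 and 54.2 in T24 and 129.7, 159.8 and 55.8 in T24DDP. The third T24DDP library lay within the range of T24.

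DMKN, which encodes dermokine, a secreted protein of the epidermis, had 11.7, 8.17 and 12.6 in T24 and 387, 361 and 278 in T24DDP, a 31.6-fold difference. B3GNT3, an enzyme that extends O-linked glycans, had 2.13, 1.02 and 3.87 in T24 and 82.8, 64.7 and 72.5 in T24DDP. Both were near the floor or low in T24 and well expressed in every T24DDP library. Of the CEACAM and PSG adhesion proteins, 2 of 22 annotated genes were listed, with opposite directions that TMM factors did not turn: CEACAM19 had 4.26, 8.17 and 5.81 in T24 and 27.9, 30.5 and 16.6 in T24DDP, while PSG4 was lower and is described with the lower genes. No member was among the 15 kallikreins annotated on the chromosome, since none is listed.

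Genes known from nerve cells made up the other large group. Of 44 annotated genes, 13 were listed, 12 were called higher, beside 88.2% of all members, and CPT1C was called lower. The median was 2.90 on the authors' scaling and 2.12 with TMM factors, under which the same 12 stayed positive. HCN2 (chr19:589893-617159), a pacemaker channel opened by hyperpolarisation and cyclic AMP, had 56.4, 60.3 and 51.3 in T24 and 395, 392 and 493 in T24DDP, a 7.62-fold difference. SHANK1, a scaffold of excitatory synapses, had 241, 243 and 308 in T24 and 758, 733 and 935 in T24DDP. CAMSAP3, which binds the minus ends of microtubules, had 6.39, 5.11 and 6.77 in T24 and 71.8, 58.2 and 64.6 in T24DDP, and PRX, a protein of myelinating Schwann cells, had 70.3, 74.6 and 48.4 in T24 and 176, 175 and 167 in T24DDP. None of these 4 overlapped between the lines. The list also holds MISP, a protein of the mitotic spindle, and KISS1R, the kisspeptin receptor.

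**Figure D2:**
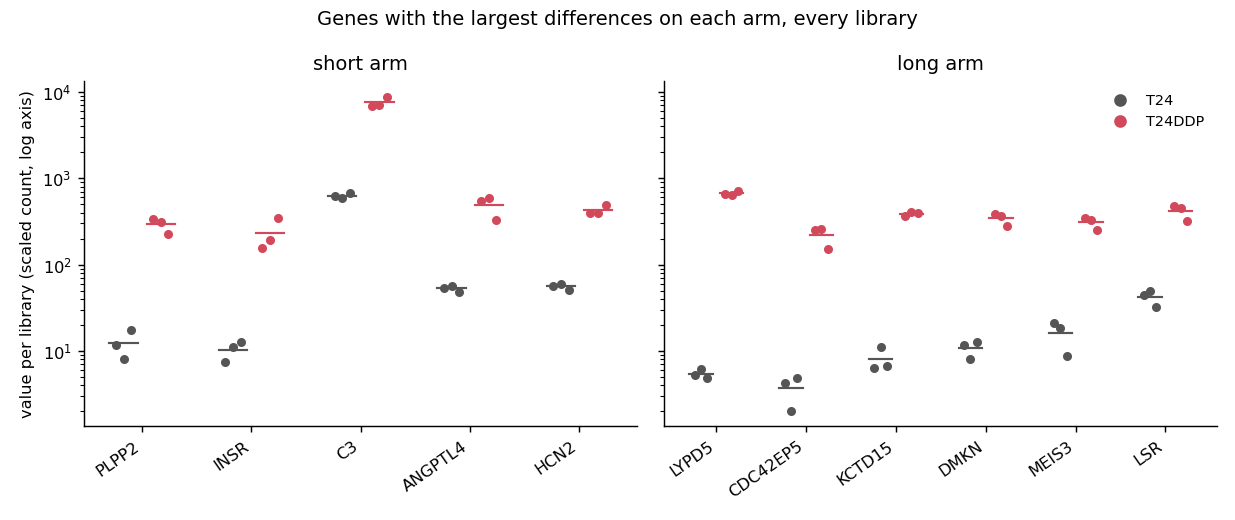
Scaled count per library (y axis, log axis) for the reported genes among the 6 with the largest log2 fold change on each arm at a mean of at least 100 in T24DDP; grey points are the T24 libraries, red points the T24DDP libraries, and bars the means. C3 starts from 594 to 665 in T24, whereas LYPD5 and CDC42EP5 start below 10, and no gene shown overlaps between the lines.

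For 13 members every T24 library had 3 reads or fewer, and the difference was a lower bound computed against a floor of 3 reads per library. NOVA2 (chr19:45933734-45973546), a splicing factor of neurons, had no read in any T24 library, and its reads numbered 0, 0 and 0 in T24 and 48, 43 and 69 in T24DDP, at least 16.9-fold higher. CACNG7, an auxiliary subunit of calcium channels and AMPA receptors, had 0, 0 and 0 in T24 and 44, 56 and 53 in T24DDP, at least 16.1-fold higher. TMEM59L, a homologue of TMEM59 expressed in brain, had 3, 1 and 1 in T24 and 46, 63 and 34 in T24DDP, at least 15.0-fold higher. These genes were present in every T24DDP library at values well above the floor.

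Other members at the floor in T24 were less clear in T24DDP. UNC13A, which primes synaptic vesicles for release, had 0, 0 and 0 in T24 and 8, 9 and 2 in T24DDP, at least 1.99-fold higher. NTF4 had 0, 0 and 0 in T24 and 6, 12 and 0 in T24DDP, at least 1.86-fold higher, and the third T24DDP library held none of its reads. For NTF4 28% of its exonic bases overlap a gene on the other strand, and leaving out any library but the third of T24DDP ended its call. The bounds for C2CD4C, KISS1R, TLE6, TJP3, TMEM221 and SCGB2B2 ran from 2.73 to 6.03. In all, 13.2% of the listed genes were at the floor in T24.

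**Figure D3:**
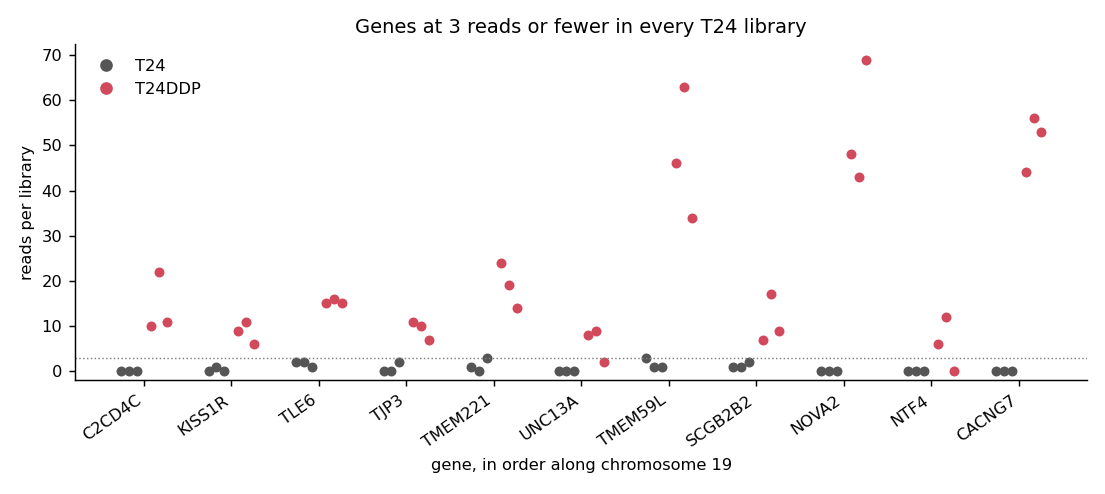
Reads per library (y axis) for the reported genes with 3 reads or fewer in every T24 library, in order along chromosome 19; grey points are T24 libraries, red points T24DDP libraries, and the dotted line marks 3 reads. NOVA2, TMEM59L and CACNG7 have 34 to 69 reads in every T24DDP library, and NTF4 has none in the third.

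Of 28 annotated genes of lipid handling 6 were listed, 5 were called higher and CPT1C lower, with a median of 2.17 beside 1.41 over all listed genes, and the same 5 were positive with TMM factors. ANGPTL4 (chr19:8363289-8374373), a secreted inhibitor of lipoprotein lipase, had 54.3, 57.2 and 48.4 in T24 and 551, 587 and 332 in T24DDP, a 9.20-fold difference. APOE, the apolipoprotein E of lipoprotein particles, had 3.19, 11.2 and 1.94 in T24 and 81.8, 51.7 and 35.3 in T24DDP. FUT1, a fucosyltransferase that makes the H blood group antigen, had 1.06, 2.04 and 5.81 in T24 and 25.9, 22.2 and 14.7 in T24DDP. The T24 values of APOE and FUT1 rest on few reads, and the groups did not overlap for either. PLPP2, a phosphatase of lipid phosphates at the cell membrane that is in none of the lists, had 11.7, 8.17 and 17.4 in T24 and 340.3, 309 and 225 in T24DDP, a 23.5-fold difference.

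Of 54 annotated transcription factors without zinc finger names, 5 were listed, 4 were called higher and HIF3A lower, with a median of 1.51, and with TMM factors 3 stayed positive while ARID3A turned (−0.23). MEIS3, a homeobox factor of the TALE class, had 21.3, 18.4 and 8.71 in T24 and 343, 328 and 255 in T24DDP, a 19.1-fold difference. ARID3A, a factor with an AT-rich interaction domain, had 201, 219 and 198 in T24 and 440.1, 408 and 507 in T24DDP. CEBPA, a leucine zipper factor of myeloid, fat and liver cells, had 5.32, 12.3 and 6.77 in T24 and 30.9, 23.1 and 18.6 in T24DDP, but 44% of its exonic bases overlap a gene on the other strand. TLE6, of the Groucho corepressor family, was at the floor in T24 with at least 4.85-fold higher values in T24DDP. KCTD15, a BTB-domain protein that acts on the factor AP-2 and is in none of the lists, had 6.39, 11.2 and 6.77 in T24 and 362, 408 and 393 in T24DDP, a 47.7-fold difference. The T24DDP libraries of KCTD15 lay close together.

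Of the 56 annotated genes on the list for actin, myosin, intermediate filaments and microtubules, which also holds GTPase regulators and clathrin adaptors, 6 were listed, 5 were called higher and AP1M2 lower, with a median of 1.37 that fell to 0.04 with TMM factors, where DOCK6 turned (−0.24). CDC42EP5, an effector of the GTPase CDC42, had 4.26, 2.04 and 4.84 in T24 and 253, 257 and 151 in T24DDP, a 59.3-fold difference. EVI5L, which activates the GTPase of Rab proteins, had 249, 234 and 224 in T24 and 578, 592 and 712 in T24DDP, and DOCK6, an exchange factor for RAC1 and CDC42, had 226, 210.4 and 212 in T24 and 437, 486 and 481 in T24DDP. The difference at CDC42EP5 was much the largest of these, from a gene of 903 bases with few T24 reads.

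The remaining lists held few members. Of 56 leukocyte receptors and antigens 2 were listed and both called higher: CD37, a tetraspanin of B cells, had 13.8, 27.6 and 26.1 in T24 and 44.9, 43.4 and 73.4 in T24DDP, and LILRB3, an inhibitory receptor of myeloid cells, had 5.32, 4.09 and 3.87 in T24 and 16.96, 19.4 and 23.5 in T24DDP. CD37 turned to −0.07 with TMM factors, and 27% of the 50-base stretches of LILRB3 also occur in other genes. Of 36 genes of apoptosis and stress response 4 were listed, 3 called higher (INSR, MAST1 and GDF15) and HIF3A lower, with a median of 1.91 and the same directions with TMM factors. MAST1, a microtubule-associated kinase, had 62.8, 67.4 and 63.9 in T24 and 295, 279.9 and 245 in T24DDP. Of 18 genes of DNA repair and replication only MUM1, a protein with a PWWP domain, was listed, with 255, 283 and 258 in T24 and 577, 549.6 and 486 in T24DDP, and it turned to −0.34 with TMM factors. None of the 29 chromatin and DNA methylation regulators and none of the 35 ribosomal and mitochondrial proteins annotated on the chromosome is listed. MYADM, a membrane protein of myeloid and other cells in none of the lists, had 1347, 1488 and 1404 in T24 and 2879, 2962 and 2989 in T24DDP and turned to −0.29 with TMM factors.

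Of the 102 genes, 41 are in none of the lists, and several of them had large differences. DACT3, an antagonist of Wnt signalling, had 8.52, 5.11 and 1.94 in T24 and 92.8, 86.8 and 66.6 in T24DDP, a 15.8-fold difference. RTBDN, retbindin, a riboflavin-binding protein of the retina, had 2.13, 5.11 and 0.968 in T24 and 42.9, 40.6 and 34.3 in T24DDP. CA11, a relative of the carbonic anhydrases, had 14.9, 10.2 and 23.2 in T24 and 146, 127 and 97.9 in T24DDP, a 7.66-fold difference. None of the 3 overlapped between the lines, and RTBDN was near the floor in T24. REEP6, which shapes the endoplasmic reticulum, had 27.7, 18.4 and 13.5 in T24 and 146, 131 and 101 in T24DDP. PGPEP1, a peptidase that removes pyroglutamate and the neighbour of GDF15, had 158, 160.4 and 145 in T24 and 532, 544 and 679 in T24DDP. The third T24DDP library, in which GDF15 was lowest, was the highest for PGPEP1.

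Further members of the lists were low in T24 and higher in T24DDP. GRIN3B, a subunit of NMDA receptors, had 1.06, 5.11 and 1.94 in T24 and 30.9, 53.6 and 36.2 in T24DDP, a 14.9-fold difference. SPTBN4, the beta spectrin of the axon initial segment, had 3.19, 5.11 and 2.90 in T24 and 39.9, 37.9 and 39.2 in T24DDP, a 10.4-fold difference. Neither gene overlapped between the lines. BRSK1, a kinase of neuronal polarity in none of the lists, had 26.6, 60.3 and 48.4 in T24 and 193, 187 and 94.0 in T24DDP, with the third T24DDP library between the others and T24.

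The 4 members that limma did not call lay just under a log2 value of 1. They were CTXN1 (0.95), a membrane protein of cortical neurons, ICAM5 (0.94), LYPD3 (0.98) and TRAPPC6A (0.91), a subunit of a vesicle tethering complex. All were lowest in the third T24DDP library among the T24DDP libraries, where TRAPPC6A had 52.2, 37.8 and 33.9 in T24 and 126, 80.4 and 45.0 in T24DDP. Without that library all 4 were called higher, and with TMM factors all 4 turned negative, from −0.42 to −0.35. The members just above 1 were CCDC106 (1.00), MUM1 (1.01) and MYADM (1.06), and genes outside the authors' threshold are not in the table.

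Only 8 members were lower in T24DDP, 4 on each arm, and TMM factors turned none of them. Those factors moved the listed genes downward, by a median of −1.32. Such a shift cannot turn a negative value, so it is no check of these genes. AP1M2 (chr19:10572671-10587315), the medium subunit of the clathrin adaptor AP-1B of epithelial cells, had 2282, 1915 and 1841 in T24 and 1024, 983 and 660.0 in T24DDP, 2.26-fold lower. PLEKHJ1, a small protein with a pleckstrin homology domain, had 1535, 1446 and 1220.5 in T24 and 685, 683 and 399.5 in T24DDP, 2.38-fold lower. PSG4 (chr19:43192702-43207299), a pregnancy-specific glycoprotein of the placenta, had 593, 563 and 561 in T24 and 154, 146 and 124 in T24DDP, 4.05-fold lower. These 3 were well expressed in both lines and their groups did not overlap. For PSG4 15% of the 50-base stretches also occur in other genes, so reads of PSG4 and of those genes may be split.

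The other 5 lower genes had low values. PDE4A, which degrades cyclic AMP, had 44.7, 36.8 and 30.0 in T24 and 18.96, 18.5 and 11.8 in T24DDP. ACP5, the tartrate-resistant acid phosphatase of osteoclasts and macrophages, had 22.4, 14.3 and 17.4 in T24 and 6.99, 4.62 and 1.96 in T24DDP. CD177, a neutrophil surface antigen, had 28.7, 31.7 and 40.6 in T24 and 4.99, 5.54 and 15.7 in T24DDP, and 18% of its 50-base stretches also occur in other genes. In CD177 the third T24DDP library was nearer to T24 than the others, and in ACP5 it was farther. CPT1C, the brain form of carnitine palmitoyltransferase 1, had 17.03, 8.17 and 14.5 in T24 and 0.998, 4.62 and 3.92 in T24DDP. HIF3A, a member of the hypoxia-inducible factor family, had reads of 5, 1 and 7 in T24 and 0, 0 and 0 in T24DDP, at least 1.51-fold lower. Without the third T24DDP library PDE4A was at −0.93 and AP1M2 at −0.998, and neither was called.

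**Figure D4:**
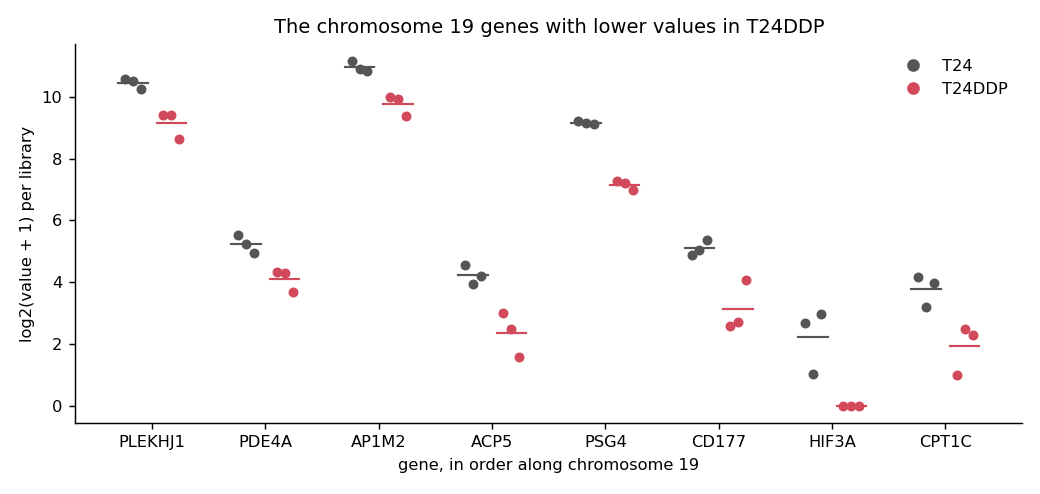
Log2(value + 1) per library (y axis) for the 8 genes with lower values in T24DDP, in order along chromosome 19; grey points are T24 libraries, red points T24DDP libraries, and bars the means. AP1M2, PLEKHJ1 and PSG4 are well above the others in both lines, and all T24DDP libraries of HIF3A lie at 0.

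Members that lie next to each other mostly had the same direction, with only 8 lower genes among them. Of 100 neighbouring pairs on the same arm, 20 were at most 50 kb apart, and 19 of these had the same direction; the exception was PDE4A and S1PR5. The longest run of members with positive values was 26. RTBDN and MAST1, on opposite strands, have a gap of −1.48 kb, an overlap, and had log2 values of 3.58 and 2.06. Use of the strand in counting is not given in the sources used here. In all, 77 members had at most 10% of their exonic bases or 50-base stretches in common with other genes, and 7 had over 25%, among them ZSWIM4, CEBPA, CERS1, NTF4, LILRB3 and DNAAF3.

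The third T24DDP library was lower than the others for most members, a comparison within a group and not the contrast on which the table was selected. Its log2(value + 1) was below the mean of the first and second for 70 of the 102 genes (68.6%), with a median of −0.28, against a median of −0.02 for the second library minus the first. It was the lowest of the T24DDP libraries for 62 genes and the highest for 27. The median was −0.28 on the short arm and −0.32 on the long arm. It was −0.03 over the 1760 listed protein-coding genes of other chromosomes, of which 52.0% were below 0, and 0.21 over the zinc finger genes of chromosome 19, of which 10 of 55 were below 0. Genes are not replicates and a single library stands on one side, so these values have no test.

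The deviation went with gene length. Across the members Spearman's rho with the gene length in the table was 0.39 (n = 102 genes of the same libraries), and with the G and C content of the promoter 0.14 (n = 74). Among the 34 shortest members, up to 2916 bases, 30 were below 0 with a median of −0.54. Among the 34 longest, from 4845 bases, 16 were below 0 with a median of 0.01. Listed genes of other chromosomes over the same length ranges had medians of −0.32 (431 genes) and 0.11 (881 genes). The lowest deviations were at NTF4 (−3.20), GDF15 (−1.83), UNC13A (−1.63) and EBI3 (−1.58). Only INSR (1.01) and CD177 (1.41) were above 1. The part of the high MT-RNR2 share of this library in these deviations was not tested.

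**Figure D5:**
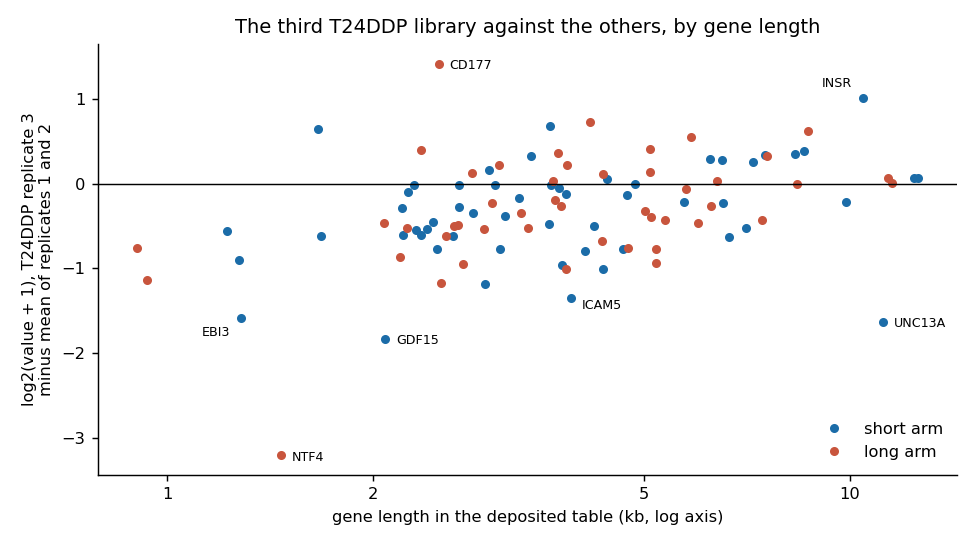
Deviation of the third T24DDP library, as log2(value + 1) minus the mean of the other T24DDP libraries (y axis), against gene length in kb (x axis, log axis) for the 102 genes, coloured by arm. Most genes shorter than 3 kb lie below 0, while the longest genes scatter around it.

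Leaving out the third T24DDP library left the picture of higher and lower members much as it was. The median of the 102 genes was 1.90 without it and 1.80 with it, and 94 were called higher and 6 lower.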

How the data were processed

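RNA of 3 T24 and 3 T24DDP libraries was sequenced by the authors. According to the study's methods, the authors trimmed reads with fastp, aligned them to GRCh38 with HISAT2, counted them per gene with featureCounts and tested T24DDP against T24 with DESeq2. The deposited signal values are per-gene read counts that the authors scaled with a size factor for each library. The deposited table also holds the authors' group means, log2 fold changes, p-values and adjusted p-values, none of which was used here. It lists 2462 genes that passed the authors' test, and no per-library column was left unused.

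In each library 100% of the values were whole multiples of the library's smallest step (tolerance 1e-06), and reads and size factors were recovered from these steps. Reads carry no molecular identifiers, so floors cover counting error only. The members and the 15 gene lists were chosen with earlier results of these data known. The fit over all 2462 genes used log2(value + 1) and limma 3.58.1 with trend, in R 4.3.3. Calls needed a Benjamini-Hochberg adjusted p under 0.05 and a log2 fold change above 1 or below −1. The planned edgeR test applied to raw counts only, and edgeR 4.0.16 and DESeq2 1.42.0 were run on the recovered reads as alternatives. The scripts were tested on simulated data. A log2 fold change understates the change of low genes because of the pseudocount of 1.

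Genes were named if their log2 fold change was below 0, if they were among the 6 largest per arm at a T24DDP mean of at least 100, among the 4 highest per arm or per list, or at the floor of 3 reads in T24 or T24DDP with a mean of at least 20 in the other. No neighbouring members of 1 family were found by the rule. Genes named beyond these (B3GNT3, BCAM, CADM4, UNC13A, NTF4, EBI3, RTBDN, CCDC106 and those not called, for example) were chosen after their values were seen. Some genes are part of the counts and medians but are not reported here. The alternatives were TMM factors, no trend, a mean of at least 10, pseudocounts of 0.1 and 10, windows of 2 Mb, the replicate number as a block, leaving out each library, edgeR and DESeq2. The lists were kallikreins, CEACAM and PSG proteins, lipid handling, leukocyte receptors, cytokines and complement, receptors coupled to G proteins, adhesion and junction, cytoskeleton, transcription factors, chromatin, DNA repair, apoptosis and stress, Notch and growth factors, ribosomal and mitochondrial proteins, and synapse and nerve. Of the 102 identifiers, all were found in GENCODE version 44, 99 with the same symbol and 37 with the same start and end, and gene coordinates are those of the table.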

Additional observations from a re-analysis of the deposited data

How the results depend on the processing

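All alternatives kept the direction of every gene of the 102 that they tested, except TMM factors computed on the listed genes, which turned 21 and ended the call of 36 more. With TMM factors 20 short-arm and 17 long-arm genes were called higher (49 and 41 as reported) and the medians were 0.54 and 0.49 (1.76 and 1.81). The genes named in the text that turned were ARID3A (−0.23), MUM1 (−0.34), SEMA6B (−0.23), CTXN1 (−0.39), ICAM5 (−0.40), DOCK6 (−0.24), EPOR (−0.13), LYPD3 (−0.35), TRAPPC6A (−0.42), CD37 (−0.072), MYADM (−0.29), CCDC106 (−0.35), ADAMTSL5 (−0.19), CAPS (−0.26), CFD (−0.064), ZSWIM4 (−0.17) and TMEM143 (−0.23). All listed genes moved by a median of −1.32 with these factors, and no cause beyond that shift was tested. A pseudocount of 10 moved the median to 1.25 on the short arm and 1.25 on the long arm, with 2 genes called lower on each arm in place of 4 and 74 of 102 called higher, and it moved all listed genes by −0.16, as a larger pseudocount shrinks low genes. A pseudocount of 0.1 gave a short-arm median of 1.91 and DESeq2 on the recovered reads 1.90. A mean of at least 10 left 89 genes tested and 2 called lower on the long arm. Among windows of 2 Mb with at least 5 members the lowest median was 1.03 and the highest 2.62, against 1.22 and 2.46 in windows of 5 Mb under the same minimum. Leaving out each library in turn gave 85 to 94 genes called higher in all, and 2 to 4 called lower on the short arm, where the 2 came without the third T24DDP library (PDE4A −0.93 and AP1M2 −0.998). In all, 9 genes lost a call when some library was left out: these were MUM1, CAPS, PDE4A, AP1M2, CCDC151, TMEM143, NTF4, CD37 (0.94 without the first T24 library) and CCDC106. Over the 102 genes edgeR called 94 higher and 8 lower, and DESeq2 93 and 8. Whether the replicate numbers pair the samples is not given, and the values do not settle it. Same-numbered libraries deviated with correlations of 0.12, 0.02 and 0.18. Each T24 library correlated best with its own number, but the second T24DDP library correlated better with the first T24 library (0.11). With the replicate number as a block 90 genes were called higher and 8 lower, as without it. Genes with few reads, such as NTF4, GIPR and CCDC151, carry the widest intervals.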
